A study of Apis mellifera with 12 samples.

Results

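The microRNAs (miRNAs) ame-miR-750, ame-miR-1175 and ame-miR-281 of the honey bee (Apis mellifera) were followed through 12 pools of fat body RNA. They are 3 of the 168 bee miRNA reporters on the array and are written below without the species prefix. They were chosen by name because of how their signal varied between these same pools, so their spread and their likeness are given below as descriptions without a test. The pools came from workers that received dsRNA against vitellogenin (dsRNA-Vg) or, as the sham control, dsRNA against green fluorescent protein (dsRNA-GFP), injected into the abdomen of newly emerged bees as 2 µL at 10 µg/µL. All bees were 15-day-old adults, labelled as foragers, and the tissue was the abdominal carcass with the fat body that lines it. Each group held 6 pools, and every pool joined 400 ng of small RNA from each of 5 bees and was hybridised to 1 array. No uninjected bees and no gut sample were among the samples, and the vitellogenin transcript was not analysed here.

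A miRNA is a short RNA that guides a repressor complex to target transcripts, and the bases of its seed, near the 5′ end, carry most of the pairing. In mosquitoes miR-1175 is known as a midgut miRNA, made in the epithelium that digests and absorbs food, and miR-281 is also known from the mosquito midgut. miR-750 is grouped with them here because its gene neighbours that of miR-1175, and no role is given for it. Fat body is the insect tissue that stores fat and glycogen and makes yolk protein. In bulk RNA a lower signal can come from fewer cells of a type or from less RNA per cell, and these cannot be told apart.

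The sequences below are the targets that the scanner files give for the 3 reporters, 5′ to 3′, shown because the array identifies each miRNA by them alone. Capitals mark the seed, bases 2 to 8.
miR-750: cCAGAUCUaacucuuccagcuc
miR-1175: uGAGAUUCacuccuccaacuuac
miR-281: uGUCAUGGaguugcucucuuugu
The 3 seeds differ, and 0 of the other 167 reporters carried the seed of any of them.

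miR-750 and miR-1175 are moderately alike. Aligned without gaps they share 11 positions, in capitals in the following lines, of which 10 lie outside both seeds.
miR-750: ccagaucUaACUCuUCCAgCUc
miR-1175: ugagauUcACUCcUCCAaCUuac
Of all 14028 pairs of reporters on the array, 5.82% matched at 11 or more positions, with a median of 8. Their longest common run was 4 bases, and 67.3% of all pairs had a run at least as long. The closest reporter to miR-750 was miR-279b (12 positions), those closest to miR-1175 were miR-3749 and miR-279c (12 each), and the closest to miR-281 was miR-3754 (13). Whether a target binds to the reporter of another was not tested. In the RefSeq gene table of assembly Amel_HAv3.1, Mir1175 and Mir750 stand in consecutive rows on sequence not placed on a chromosome, and Mir281 is placed elsewhere and overlaps LOC113218663, a long non-coding RNA gene. Its coordinates are left out because the array files name no genome build.

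miR-750 was the miRNA whose normalized signal spread furthest between pools. On the log2 scale, after background correction and quantile normalization, it read 12.21 in dsRNA-GFP pool 3, 11.61 in dsRNA-Vg pool 3, 11.08 in dsRNA-GFP pool 5, 10.96 in dsRNA-GFP pool 1 and 10.76 in dsRNA-GFP pool 2. In the other 7 pools it read 7.30 to 7.72. These 7 were dsRNA-GFP pools 4 and 6 and every dsRNA-Vg pool except pool 3. The empty interval between the 2 sets of values was 3.04 wide, 62.0% of the whole range of 4.91, and the 7 lower pools spanned 0.42. From the lowest pool to the highest the normalized signal differed 30.0-fold. In the authors' deposited value table, which holds 1 processed intensity per miRNA and pool, the same 5 pools read 5040, 3973, 3602, 1851 and 2000 in that order, and the other 7 read 61 to 118.

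miR-1175 was bright in the same 5 pools. It read 10.25 in dsRNA-Vg pool 3, 10.22 in dsRNA-GFP pool 3, 9.96 in dsRNA-GFP pool 5, 9.63 in dsRNA-GFP pool 2 and 8.84 in dsRNA-GFP pool 1, and 7.10 to 7.46 in the other 7. The deposited intensities of the 5 pools were 1369, 1000, 1507, 902 and 318 in that order, and those of the other 7 were 47 to 77. The lowest pool, dsRNA-Vg pool 6, lay under the detection level of its array. Against the lowest signal detected there, the highest pool was at least 7.04-fold higher.

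miR-281 varied less and left no wide gap. Its highest values were 8.62 in dsRNA-GFP pool 3, 8.16 in pool 2 and 8.06 in pool 5, all of them pools with bright miR-750 and miR-1175. In the other 2 bright pools it was not high: 7.54 in dsRNA-Vg pool 3 and 7.30 in dsRNA-GFP pool 1, inside the 7.25 to 7.73 of the 7 pools with dim miR-750. The deposited table gave the same picture, with 254, 295 and 143 in the first 3 pools, 70 in dsRNA-Vg pool 3, 85 in dsRNA-GFP pool 1, and 52 to 133 in the remaining 7. On these 2 scales miR-281 thus read highest in 3 of the 5 pools in which the other 2 miRNAs were bright. Of these 3, dsRNA-GFP pool 5 was not clearly high. It stood little above the highest dim pool in the deposited table (143 against 133). In scanner intensity less the empty-spot median it read 96.5, below the 129 of dim dsRNA-GFP pool 6.

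**Figure D1:**
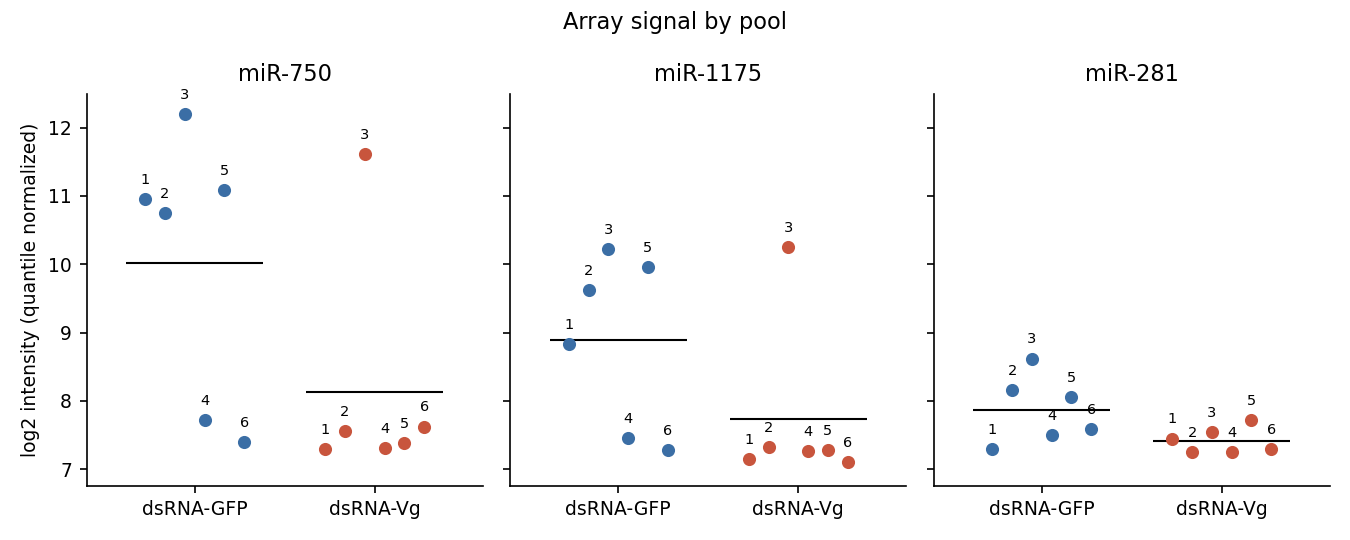
Log2 intensity (vertical axis, quantile normalized) of miR-750, miR-1175 and miR-281 in each pool, blue for dsRNA-GFP and red for dsRNA-Vg. Numbers are pool numbers, horizontal lines are group means and the short bars, mostly hidden by the points, are the SE over 18 spots. miR-750 and miR-1175 are bright in pools 1, 2, 3 and 5 of dsRNA-GFP and pool 3 of dsRNA-Vg, while miR-281 spans only 1.37.

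The split was present in the raw spots, before any correction. Each reporter had 18 spots per array, and the spots that the scanner files mark as empty give the background of the array. In the 5 bright pools all 18 miR-750 spots exceeded the 95th percentile of the empty spots. Their lowest spot read 1464 in dsRNA-GFP pool 1, 3134 in pool 2, 1548 in pool 3, 1689 in pool 5 and 1746 in dsRNA-Vg pool 3, where those percentiles were 544.8, 449.8, 272.1, 302.6 and 312.0. The mean miR-750 spot was 3.50 to 8.98 times the empty-spot median in these pools and 1.15 to 1.32 times in the other 7. miR-1175 was 1.77 to 5.04 times that median in the bright pools and 1.02 to 1.24 times in the others. The order among the bright pools changed with normalization. Less the empty-spot median, miR-750 read 3231 in dsRNA-GFP pool 2 and 1228 to 1781 in the other bright pools. After normalization pool 2 was the lowest of the 5. miR-1175 was also highest there before normalization (1635 against 380 to 780).

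miR-281 lay near the background on most arrays. It was 2.44 times the empty-spot median in dsRNA-GFP pool 2, 1.70 times in pool 3, 1.50 times in dsRNA-Vg pool 5 and 1.36 times in dsRNA-GFP pool 5, and 1.07 to 1.32 times in the other 8. Detection on an array required 50% or more of the 18 spots to lie above the empty-spot 95th percentile. By that rule miR-750 was detected on all 12 arrays, and miR-1175 and miR-281 on 10, the exceptions being dsRNA-GFP pool 4 and dsRNA-Vg pool 6 for both. All 3 passed the filter for testing, detection on at least 6 of 12 arrays, as did 127 of the 168 reporters.

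**Figure D2:**
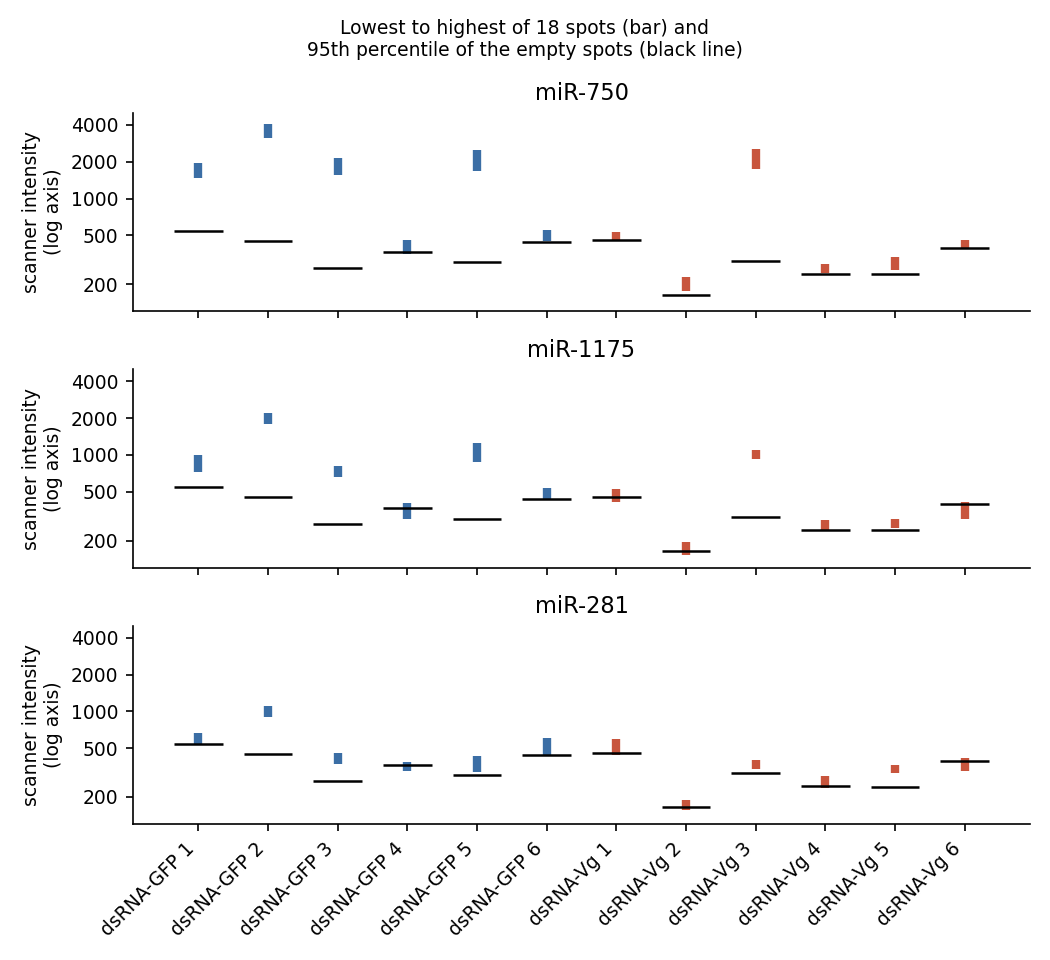
Scanner intensity (vertical, log axis) of the lowest to the highest of 18 spots of each miRNA (bars, blue for dsRNA-GFP, red for dsRNA-Vg) in each pool, with the empty-spot 95th percentile of the array as a black line. The miR-750 bars of the 5 bright pools stand clear of the line and the other 7 lie on or just above it.

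More probes were detected in 4 of the 5 bright pools than on any array with dim miR-750. The number of detected probes was 168, 155 and 143 in pools 1, 2 and 3 of dsRNA-GFP, 163 in dsRNA-Vg pool 3, and 37 to 139 on the 7 arrays with dim miR-750. In dsRNA-GFP pool 5, the fifth bright pool, it was 47, within those of the dim arrays. The median of the other 165 reporters was 1.19, 1.16, 1.13 and 1.16 times the empty-spot median on the first 4 arrays, 1.08 times in dsRNA-GFP pool 5 and 0.936 to 1.12 times on the other 7. The part of array brightness in the values of the 3 miRNAs was not tested. Between the groups the number of detected probes differed by -18.5 (dsRNA-Vg minus dsRNA-GFP, two-sided exact permutation p = 0.539) and the empty-spot median by -79.1 (two-sided exact permutation p = 0.184). The spots of different members were never adjacent, with a smallest distance of 5.00 spot positions between miR-750 and miR-1175.

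Neighbouring pools in the order of miR-750 were often not resolved. Of the 11 steps between pools next to each other in that order, 5 exceeded 2 times the combined SE over spots. The figure was also 5 of 11 for miR-1175 and 2 of 11 for miR-281. For miR-1175 the highest 2 pools, dsRNA-Vg pool 3 and dsRNA-GFP pool 3, differed by 0.03 on the log2 scale (combined SE over spots 0.04). The 18 spots of a probe share 1 pool and 1 array, so this error is technical.

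How closely 2 miRNAs go together was counted as the number of the 66 pairs of pools that both put in the same order. No correlation is given, since the pools fall into separate sets and a coefficient would rest on the gap. miR-750 and miR-1175 put 59 of 66 pairs in the same order, 14 of 15 among the dsRNA-GFP pools and 11 of 15 among the dsRNA-Vg pools. These counts rest on the gap in part too. Both miRNAs were bright in the same pools, so every pair of a bright and a dim pool counts as the same order. The counts therefore overstate how closely the 2 miRNAs follow each other within each set. On the log2 scale, for each of these 2 miRNAs the other was the closest among the 126 other tested miRNAs, whose median count with miR-750 was 33. The deposited table gave 55 of 66, a count that miR-190 also reached there with miR-1175. Genes on an array share the array's brightness and background, so this median is a description and not a chance level.

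miR-281 followed both miRNAs much more loosely. It put 45 of 66 pairs in the same order as miR-750 and 46 of 66 in the same order as miR-1175, and 8 of 15 with either among the dsRNA-Vg pools. Among the dsRNA-GFP pools alone the counts were 10 and 11 of 15. The median count with miR-281 over the 126 other tested miRNAs was 32.5, and 14 of them reached 42 or more. miR-1000, known from the fly nervous system, was closest to miR-281 with 57 of 66 pairs, before the neuronal miR-124 with 50 and miR-3721 with 48. By the deposited table these 3 counts were 45, 43 and 42, and let-7 and miR-7 came before them with 47 each, so the closest miRNAs to miR-281 differ with the processing. miR-1000 read only 6.84 to 7.14 over the 12 pools and miR-3721 6.77 to 7.03, both near the background. miR-124 read 7.52 in dsRNA-Vg pool 1 but 6.93 to 7.10 elsewhere, and was detected on 8 arrays.

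Other miRNAs went with miR-750 and miR-1175 over much smaller ranges. miR-190 put 54 of 66 pairs in the same order as miR-750 and 57 of 66 as miR-1175, but it spanned 0.30 on the log2 scale and was detected on 7 arrays. miR-184, which acts in the fly female germline, put 49 and 52 pairs in the same order. It was detected on all 12 arrays and read 11.98, 11.67, 12.15 and 11.97 in pools 1, 3 and 5 of dsRNA-GFP and pool 3 of dsRNA-Vg, but 11.27 in dsRNA-GFP pool 2. In the other 7 pools it read 11.07 to 11.64. In 4 of the 5 bright pools miR-184 thus lay above every dim pool on the log2 scale, in dsRNA-GFP pool 3 by 0.03. The deposited table differed for that pool, where miR-184 had an intensity of 2899, inside the 2360 to 3433 of the 7 dim pools. The 3165 of dsRNA-GFP pool 2 was inside that span too. The other bright pools were above it, at 4036 to 4892, so the place of dsRNA-GFP pool 3 depends on the processing. After miR-1175 and miR-190, miR-3716a was the closest to miR-750 (50 pairs, range 0.25). miR-3763 followed miR-184 in its likeness to miR-1175 (51 pairs, range 0.20). Both were detected on 6 arrays. At the other end stood miR-2 for all 3 members. Quantile normalization holds miR-2 at 13.78 in 11 of the 12 pools, so most of its pairs are ties. Ties were counted as not in the same order, so this place says nothing of its likeness.

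The ratio of miR-750 to miR-1175 was not constant among the bright pools. Reporters bind their targets with unequal strength, so only its change from pool to pool is read here. The log2 difference, miR-750 minus miR-1175, was 2.13 in dsRNA-GFP pool 1 and 1.99 in dsRNA-GFP pool 3, against 1.13 in dsRNA-GFP pool 2, 1.12 in dsRNA-GFP pool 5 and 1.37 in dsRNA-Vg pool 3, with SEs over spots of 0.04 to 0.11, so the first 2 lay above the other 3 by more than the error over spots. The deposited table gave ratios of 5.82 and 5.04 in the first 2 of these pools and 2.22, 2.39 and 2.90 in the others. In the scanner values less the empty-spot median the ratios were 3.23 and 3.37 against 1.98, 2.27 and 2.38. The ratio was therefore higher in dsRNA-GFP pools 1 and 3 than in the other 3 bright pools, by all 3 ways of computing it. A ratio does not say which of the 2 miRNAs differed. In dsRNA-GFP pool 3 miR-750 had its highest log2 value (12.21) and miR-1175 its second highest (10.22). In the 7 dim pools, where both probes lay near the background, the log2 difference ran from 0.04 to 0.52.

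miR-281 did not keep a ratio to miR-750 either. The log2 difference, miR-750 minus miR-281, was 4.07 in dsRNA-Vg pool 3, 3.67 in dsRNA-GFP pool 1, 3.59 in pool 3, 3.03 in pool 5 and 2.59 in pool 2. In the other 7 pools it lay between -0.34 and 0.34. The deposited ratio was 56.8 in dsRNA-Vg pool 3 but 6.78 in dsRNA-GFP pool 2.

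**Figure D3:**
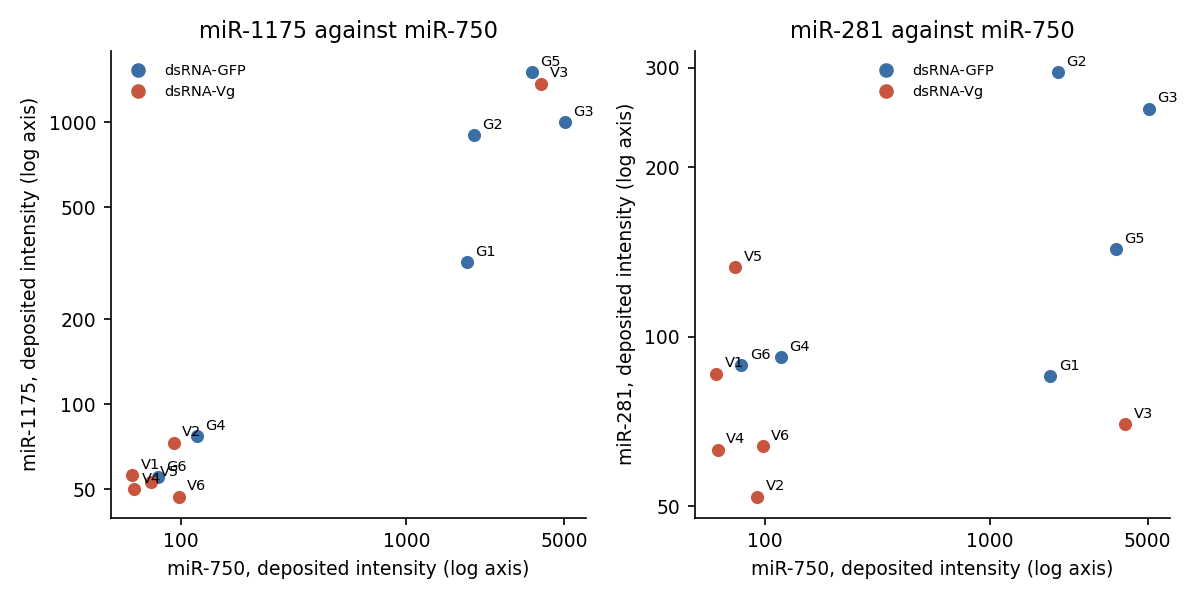
Deposited intensity of miR-1175 (left) and miR-281 (right) against that of miR-750 in each pool, on log axes, blue and G for dsRNA-GFP, red and V for dsRNA-Vg, with the pool number. Pools G1, G2, G3, G5 and V3 lie apart from the other 7 along the miR-750 axis. They are also the highest on the miR-1175 axis, but V3 and G1 have miR-281 values of 70 and 85, within those of the dim pools.

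Among the 127 tested miRNAs, miR-750 had the widest range over the 12 pools, miR-1175 the third widest (3.15) and miR-281 stood at rank 13 (1.37). The median range was 0.40, and 7 miRNAs exceeded 2. miR-3739, which rose after dsRNA-Vg (log2 fold change 2.51, SE 0.37, limma adjusted p = 0.00305), stood between miR-750 and miR-1175 with 4.22. miR-3789 stood just below miR-1175 with 2.48. miR-281 had miR-11, a miRNA that limits cell death in the fly, just above it (1.46) and let-7, which times development, just below (1.33). In the deposited table miR-14 had the widest range (95.4-fold) and miR-750 came second at 82.6-fold, with miR-1175 at rank 4 (32.1-fold) and miR-281 at rank 16 (5.67-fold). miR-14, a brake on fat storage in flies, ranged only 1.05 on the quantile-normalized log2 scale. Its 95.4-fold range rests on a deposited intensity of 5 in dsRNA-Vg pool 6, where the median over all reporters was 28.5.

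**Figure D4:**
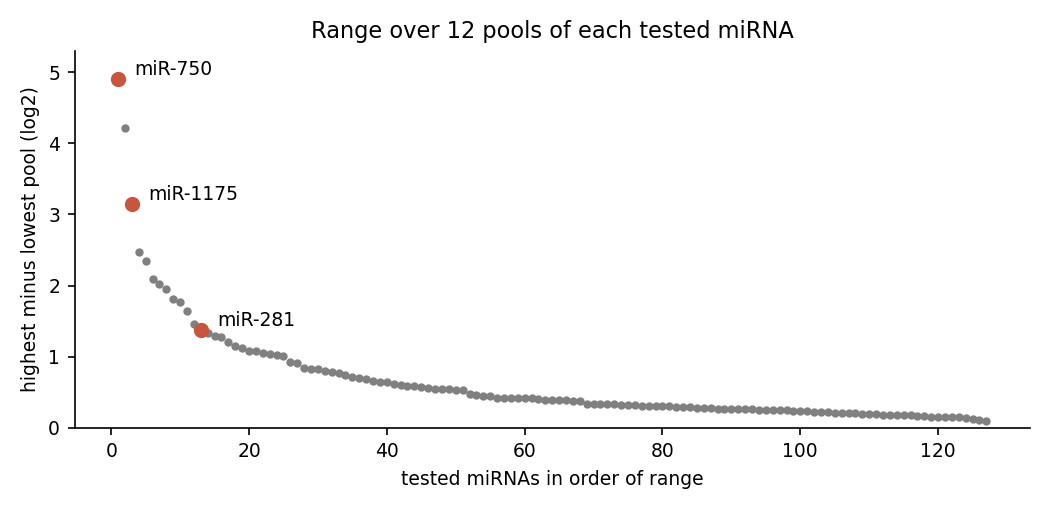
Range over the 12 pools (highest minus lowest log2 intensity, vertical axis) of the 127 tested miRNAs in order of range (horizontal axis), with miR-750, miR-1175 and miR-281 in red. miR-750 (4.91) and miR-1175 (3.15) stand far above the median of 0.40.

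In the deposited table the 3 miRNAs together took 0.106% to 3.76% of the summed intensity of an array, the highest share in dsRNA-GFP pool 3. miR-750 alone took up to 3.01%, with a median of 0.0658%. The summed intensity of miR-1 and miR-133, which belong to muscle, ran from 1618 to 5224 in the dsRNA-GFP pools and from 1835 to 3225 in the dsRNA-Vg pools. The 7 miRNAs of fat body metabolism summed to 43703 to 55053 and 46323 to 55864, most of it miR-8 (32766 to 44058 over the 12 pools), so this sum says little of the other 6, among them miR-14. The 3 gut-linked miRNAs summed to 223 to 6294 and 175 to 5412. Muscle miRNAs put 18 and 34 of 66 pairs in the same order as miR-750, the 7 fat body miRNAs 17 to 45, and 4 epithelial miRNAs 27 to 49. A tied pair was counted as not in the same order. The count of 17 belongs to miR-8, which quantile normalization holds at 15.29 in several pools, so it is lowered by ties. Only these 3 of the 5 gut-linked miRNAs listed were among the reporters used here, so the presence of gut tissue was not tested. All 7 fat body miRNAs were detected on 6 or more arrays, and the array holds no other marker of that tissue used here.

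Setting the dsRNA-Vg pools against the dsRNA-GFP pools asks whether targeting vitellogenin, the yolk precursor that also shapes worker ageing and foraging, is followed by a change in fat body miRNAs. None of the 3 members passed the test. Over all 127 tested miRNAs, limma called 2 at an adjusted p under 0.05, which is 1.57%, and 0 of the 3 members. All 3 members had lower means after dsRNA-Vg, with a median log2 fold change of -1.17, where 67 of all 127 had a negative value and their median was -0.01. miR-750 and miR-1175 had the most negative and the second most negative values of the 127 and miR-281 ranked 4 by the same order, all with wide errors. The members were chosen for their spread over these same pools, which favours large differences of means, so these places are a description. By limma p, miR-750, miR-1175 and miR-281 ranked 28, 33 and 15 of the 127.

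After dsRNA-GFP miR-750 had a lowest, median and highest log2 intensity of 7.39, 10.86 and 12.21, and after dsRNA-Vg of 7.30, 7.47 and 11.61. The groups overlapped across almost the whole range, since dsRNA-GFP pools 4 and 6 were dim and dsRNA-Vg pool 3 was bright. The means were 10.02 ± 1.98 and 8.13 ± 1.71 (SD, n = 6 each), a log2 fold change of -1.89 (SE 0.99, 95% CI -4.06 to 0.29, limma adjusted p = 0.375). That is a 3.70-fold lower mean. A two-sided exact permutation test gave p = 0.16, so differences this large were not rare when the pools were relabelled. This does not show that the groups are alike. The smallest p this design allows is 0.00216.

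For miR-1175 the lowest, median and highest values were 7.28, 9.23 and 10.22 after dsRNA-GFP and 7.10, 7.27 and 10.25 after dsRNA-Vg. The highest and the lowest pool of all 12 both belonged to dsRNA-Vg. The log2 fold change was -1.17 (SE 0.67, 95% CI -2.65 to 0.31, limma adjusted p = 0.42, two-sided exact permutation p = 0.147). Without dsRNA-Vg pool 3, which stood apart from its group, the log2 fold changes were -2.58 for miR-750 and -1.68 for miR-1175 (limma adjusted p = 0.132 each).

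For miR-281 the values were 7.30, 7.83 and 8.62 after dsRNA-GFP and 7.25, 7.37 and 7.73 after dsRNA-Vg. Here 3 dsRNA-GFP pools lay above every dsRNA-Vg pool and 3 dsRNA-Vg pools lay below every dsRNA-GFP pool. The low end was not resolved, since dsRNA-Vg pool 6 lay below dsRNA-GFP pool 1 by only 0.009 (combined SE over spots 0.11). The log2 fold change was -0.46 (SE 0.20, 95% CI -0.90 to -0.01), which failed the adjustment (limma adjusted p = 0.33, two-sided exact permutation p = 0.0628). Its unadjusted limma p was 0.0447; 4.72% of all 127 tested had an unadjusted p under 0.05 and a negative value.

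In the deposited table the log2 fold changes were -2.65 for miR-750 (SE 1.23, limma adjusted p = 0.314), -1.89 for miR-1175 (SE 0.98, limma adjusted p = 0.347) and -0.91 for miR-281 (SE 0.35, limma adjusted p = 0.233). By the two-sided exact permutation test on these log2 values, p was 0.115, 0.126 and 0.0433. The last is 1 of 3 such values and was not adjusted, and miR-281 was 160 ± 92.3 after dsRNA-GFP and 78.0 ± 29.2 after dsRNA-Vg in deposited intensity (SD, n = 6 each). Limma called 2 of the 127 miRNAs in that table too, 1.57%, and 0 members. Each pool joins 5 bees, so 1 bee with a strong signal and 5 with a moderate one cannot be told apart.

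**Figure D5:**
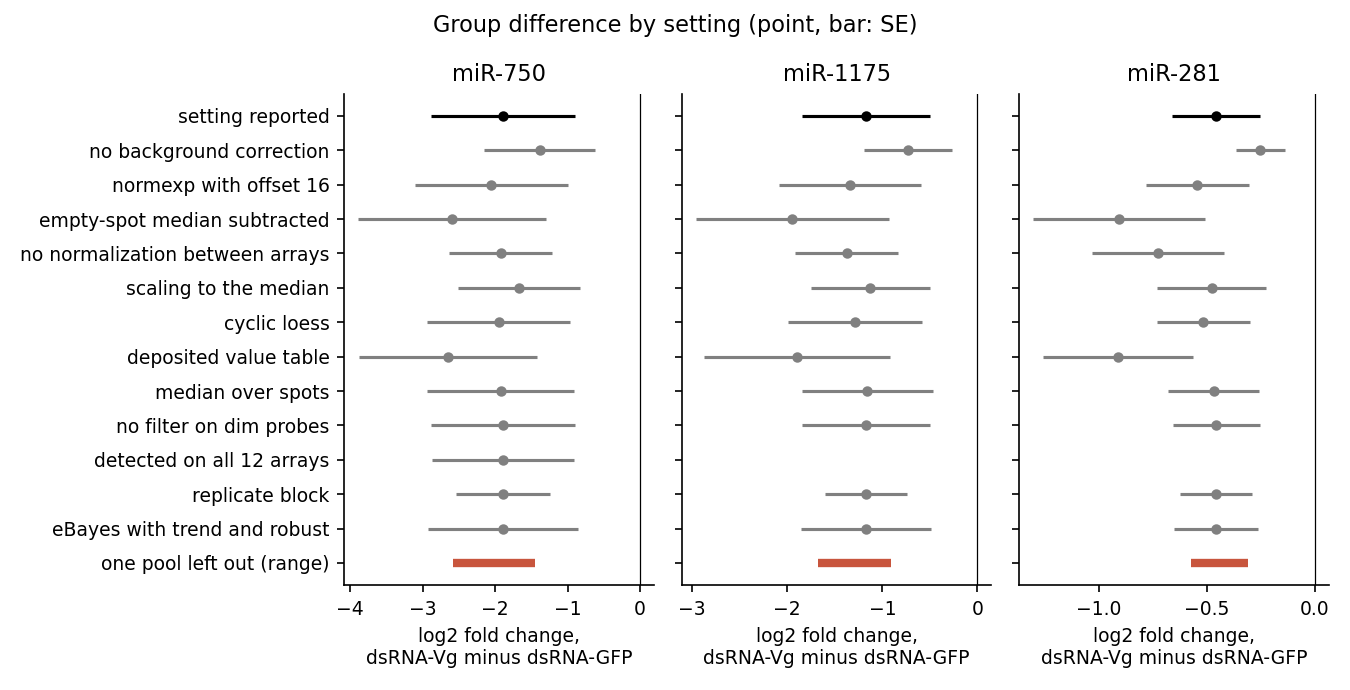
Log2 fold change (dsRNA-Vg minus dsRNA-GFP, horizontal axis) of the 3 miRNAs under each processing setting, with the SE as a bar, and in red the range of values when 1 pool is left out. Every value lies below 0, from -2.65 to -1.39 for miR-750 over all settings and pools left out, and none passed the adjusted threshold.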

How the data were processed

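Per the file headers, the deposited scanner files hold the median intensity of each spot of 1-colour (Cy3, per the labels' protocols) arrays, 3968 spots with 168 miRNA reporters in 18 spots each and 628 empty spots, and no local background. The deposited value table holds 1 whole-number intensity per miRNA and pool on a linear scale and was made by the authors in steps that are not given in the sources used for this report. Background was corrected by normexp (offset 50) over all spots in limma 3.58.1 under R 4.3.3, control spots were left out, and log2 values were quantile normalized and averaged over spots. The offset compresses dim values. Testing with limma covered the 127 reporters that were detected on 6 or more of the 12 arrays (lmFit, eBayes, group only) with Benjamini-Hochberg adjustment at 0.05, and single values went into exact permutation tests, two-sided (scipy 1.17.1). The number of arrays limits the precision.

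The members, the marker lists and the tests were chosen with earlier results of these data known. The miRNAs named are the members, those most and least like each of them in pool order, their neighbours in the order of range, their closest sequences and the marker lists. The labels give both groups the pool numbers 1 to 6 but do not say that a number marks a shared batch. Same-numbered pools deviated together with correlations of -0.33 to 0.70, so the numbers were not taken to pair the samples. The dsRNA-GFP pools 3 and 4 were most like the dsRNA-Vg pool of the same number (0.70 and 0.56). Pools 1, 2, 5 and 6 were most like a pool of another number. The design text calls the pools biological samples.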

Additional observations from a re-analysis of the deposited data

Results flagged for a closer look

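A single pool stood far from the other 5 of its group in 4 of the 12 sets of 6 values checked (3 miRNAs, 2 groups, log2 and deposited intensity). It was dsRNA-Vg pool 3 in all 4, which are 2 miRNAs on 1 array, each on 2 scales. The miRNAs were chosen for their spread over these pools, so the count is a description and is not set against chance. miR-750 read 11.61 there against at most 7.62 in the other dsRNA-Vg pools, and 3973 against at most 98 in the deposited table. miR-1175 read 10.25 against at most 7.32, and 1369 against at most 73 in the deposited table. miR-281 of the same pool read 7.54, inside its group.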

How the results depend on the processing

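The log2 fold changes kept their negative sign and stayed short of the threshold in all 24 alternatives run for miR-750 (adjusted p 0.132 to 0.635) and the 23 run for miR-1175 and for miR-281, which detection on all 12 arrays leaves out. With 1 pool left out they ran from -2.58 to -1.45, from -1.68 to -0.91 and from -0.57 to -0.31; the values furthest from 0 came without dsRNA-Vg replicate 3 for miR-750 and miR-1175. With the replicate block, adjusted p was 0.204 for miR-750 and 0.209 for the other two, and no call of the 3 changed. Without normalization between arrays the median of all tested miRNAs lay at -0.22, and relative to it the 3 values were -1.70, -1.15 and -0.50. Between 2 and 3 miRNAs were called with 1 pool left out, and 1 without normalization, with scaling to the median or among those detected on all 12 arrays. The range of miR-750 ran from 3.80 without background correction to 6.46 with the empty-spot median subtracted. That of miR-1175 was 2.09 without background correction, 4.81 with the empty-spot median subtracted and 5.00 in the deposited table, and 3.10 to 3.15 with 1 pool left out. That of miR-281 was 0.779 without background correction, 2.65 with the empty-spot median subtracted, 2.78 without normalization, 1.78 with scaling to the median and 2.50 in the deposited table, and 0.916 to 1.37 with 1 pool left out, lowest without dsRNA-GFP replicate 3. Without normalization, where arrays also differ in brightness, 98.5% of pool pairs were in the same order for miR-750 and miR-1175, 80.3% for miR-750 and miR-281 and 81.8% for miR-1175 and miR-281, against 89.4%, 68.2% and 69.7%. With 1 pool left out these were 87.3% to 96.4%, 61.8% to 72.7% and 65.5% to 72.7%. The cause of these shifts was not tested. Signal near the background limits miR-281 and the dim pools of all 3.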
